A study of Mus musculus with 12 samples.

Results

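Guanylate-binding proteins (GBPs) and immunity-related GTPases (IRGs) are GTP-splitting proteins that cells make in large amounts after interferon-gamma. The genes described here are 5 GBPs, Gbp2, Gbp3, Gbp5, Gbp6 and Gbp7, and 5 IRGs, Iigp1, Igtp, Irgm1, Irgm2 and Ifi47. They were taken by gene name from the table of raw gene counts, and all 10 were found among its 54532 genes and passed the filter on low counts, as did 14686 genes in all. The libraries came from the livers of wild-type mice of a chow study of ANGPTL8, a secreted protein that regulates triglyceride metabolism, and each mouse had received an adenovirus 9 days earlier. The Ad_GFP group had a control virus that by its name carries green fluorescent protein, the ANG8 group a virus meant to raise ANGPTL8, the shCtrl group a virus with a control short hairpin RNA, and the shANG8 group a virus with a hairpin meant to lower Angptl8. Each group had 3 libraries. All 4 groups had a virus, so no level below is that of an uninfected liver. The labels give no strain, age or sex, and do not say that the 3 libraries of a group came from separate mice. P-values therefore measure the spread between these libraries, which may be partly technical.

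In infected cells GBPs gather on bacteria and on the vacuoles of parasites, where they help to break membranes open and to start inflammasome signalling. IRGs act on the same vacuoles: Iigp1 and Ifi47 belong to the effector type that loads onto the membrane, and Igtp, Irgm1 and Irgm2 to the regulatory type that keeps effectors off the membranes of the cell itself. Interferon-gamma, made mainly by T cells and natural killer (NK) cells, binds the receptor chains IFNGR1 and IFNGR2, the kinases JAK1 and JAK2 pass the signal on, and it acts on promoters through GAS elements. It also raises IRF1, which binds ISRE elements, the elements that type I interferons use as well. Hepatocytes, Kupffer cells and endothelial cells of the liver can all answer interferon-gamma.

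Promoters were examined because these 10 genes share the same inducer. RefSeq promoters of the build GRCm38.p6, each running from 250 bases before the annotated start of a gene to 50 bases after it, held entries for 8 members. Gbp6 and Iigp1 were without one. The letters GAAA, then any 2 bases, then GAAA again, searched on both strands, stood for the ISRE, and the letters TTCNNNGAA, which read the same on both strands, for the GAS element. The ISRE letters were found in 7 of the 8 members with an entry (87.5%). Of all 27025 genes with a promoter of that length 3.99% held them, as did 3.44% of all 32851 promoters. The GAS letters were found in 4 of the 8 (Gbp5, Gbp7, Igtp and Irgm2), against 9.55% of all those genes and 8.3% of all promoters. No GAS match overlapped an ISRE match. The ISRE match began 59 bases before the start in Gbp2, 45 in Gbp3, 165 in Gbp5, 53 in Gbp7, 34 in Igtp, 30 in Irgm1 and 64 in Irgm2. Gbp3 and Irgm1 each held 2 overlapping ISRE matches, and Gbp3 had 2 entries, of which 1 held the matches. The window of Ifi47 held neither set of letters. A match is a description of the sequence and does not show that a factor binds there.

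The ISRE match of each member is printed with up to 20 bases on either side, because the layout of the elements separates the members into kinds. Each sequence reads 5′ to 3′ on the strand of its gene, in capitals where it matches the ISRE or GAS letters, and a match on the opposite strand appears as its reverse complement. The windows lie at chr3:142620584-142620633 (plus strand, Gbp2), chr3:142559979-142560034 (plus, Gbp3), chr3:142496749-142496798 (plus, Gbp5), chr3:142530263-142530312 (plus, Gbp7), chr11:58199502-58199551 (plus, Igtp), chr11:58214893-58214942 (plus, Irgm2) and chr11:48871415-48871470 (minus, Irgm1), upstream of the RefSeq start except for the last bases of the Irgm1 window.
Gbp2: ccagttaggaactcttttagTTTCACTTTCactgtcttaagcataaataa
Gbp3: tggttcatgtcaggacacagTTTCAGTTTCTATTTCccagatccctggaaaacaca
Gbp5: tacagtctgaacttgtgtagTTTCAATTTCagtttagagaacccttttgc
Gbp7: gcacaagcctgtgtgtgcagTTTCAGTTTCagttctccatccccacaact
Igtp: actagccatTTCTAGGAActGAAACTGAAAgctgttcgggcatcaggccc
Irgm2: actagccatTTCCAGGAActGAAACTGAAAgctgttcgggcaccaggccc
Irgm1: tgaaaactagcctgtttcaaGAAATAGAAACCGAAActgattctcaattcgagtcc

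In the 4 GBPs the ISRE letters lay on the strand opposite to the gene, and in the 3 IRGs on the strand of the gene. The windows of Igtp and Irgm2 were identical at 48 of 50 bases, and in both the GAS letters began 11 bases before the ISRE letters. The same spacing occurred in the related genes Tgtp1, Tgtp2 and Gm12185 on chromosome 11, whose windows lie at chr11:48992294-48992343, chr11:49064253-49064302 and chr11:48927228-48927277 on the minus strand and are shown for comparison.
Tgtp1: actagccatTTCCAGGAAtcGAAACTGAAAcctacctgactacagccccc
Tgtp2: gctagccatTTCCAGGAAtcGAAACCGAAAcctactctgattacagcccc
Gm12185: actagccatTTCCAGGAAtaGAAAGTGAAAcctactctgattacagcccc

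These 5 genes were the ones that held this spacing among all 32851 promoters (0.0152%). The spacing was counted after it had been seen, and the genes are paralogs whose sequences share a history.

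**Figure D1:**
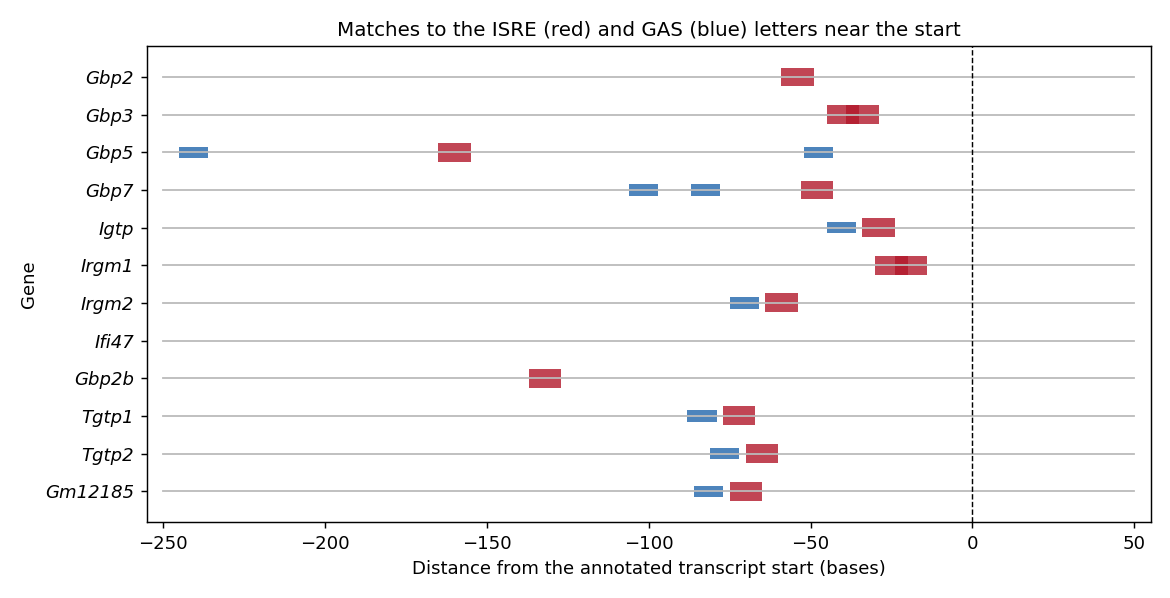
Positions of the ISRE letters (red) and GAS letters (blue) in the RefSeq promoters of the 8 members with an entry and of 4 related genes, as bases from the annotated start (0, dashed). The ISRE matches of Gbp2, Gbp3, Gbp7, Igtp, Irgm1 and Irgm2 begin between 64 and 30 bases before the start, that of Gbp5 begins 165 bases before it, and Ifi47 has no match.

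The members sit in clusters of the genome. In GRCm38 positions of the deposited table, Gbp5, Gbp7, Gbp3 and Gbp2 lie on the plus strand of chromosome 3 between 142493978 and 142638008. Gbp6 lies on the minus strand of chromosome 5 at 105270702 to 105293698. On chromosome 11, Irgm1 occupies 48861968 to 48871683 (minus), Ifi47 49076587 to 49096974 (plus), Igtp 58199556 to 58207591 (plus) and Irgm2 58199618 to 58222782 (plus). Iigp1 lies apart from the others, on chromosome 18. Some counts cannot be assigned to a single gene with certainty. The transcript of Gbp6 matches that of Gbp10 over 3131 bases at 99.2% identity and that of Gm43302 over 3923 bases at 99.8%, so the values of Gbp6 are uncertain. Igtp and Irgm2 share 162 exon bases (8.0% of those of Igtp and 4.4% of those of Irgm2), Gbp7 shares 637 exon bases (11.3%) with the pseudogene Gm43802, and Ifi47 shares 111 exon bases (4.5%) with Olfr56. Gm43802 and Olfr56 had 0 counts in every library. The largest overlap was that of Gbp6, which shares 1726 exon bases (29.0%) with Gm43302 on the same strand. Gm43302 had 0 to 3 counts per library.

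Total counts ran from 12537083 to 15144312 per library, and the share from the mitochondrial genome from 19.33% to 43.83%, highest in ANG8 replicates 1 and 2. Replicates of a group differed from each other by far more than counting error. Angptl8 itself was measured at 96.8, 80.4 and 90.0 CPM (counts scaled to a common library total) in Ad_GFP replicates 1 to 3, 165, 314 and 172 CPM in ANG8, 340, 391 and 167 CPM in shCtrl, and 144, 143 and 79.2 CPM in shANG8. Neither pair of groups overlapped, in the direction each label gives, with a log2 fold change of 1.28 (SE 0.33, adjusted p = 0.0201 by edgeR's quasi-likelihood test) for ANG8 and of -1.29 (SE 0.33, adjusted p = 0.235) for shANG8, which did not pass. The call for ANG8 was lost without any one of the 3 Ad_GFP replicates or ANG8 replicate 2, or when the fit took in mitochondrial share (adjusted p up to 0.0973). The shCtrl group lay above Ad_GFP for Angptl8 as well, by a log2 fold change of 1.75 (adjusted p = 0.338). Its mean was also above that of ANG8, at 299 CPM (SD 117) against 217 CPM (SD 84.0), with overlapping libraries. The 10 members together took from 0.130% of the counts in shANG8 replicate 1 to 0.300% in shCtrl replicate 2. Values below are CPM after TMM scaling of the library sizes, fold changes are log2 with their standard error (SE), and a gene counted as changed at an adjusted p under 0.05 over all 14686 genes.

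With the ANG8 virus, 7 of the 10 members rose against Ad_GFP and none fell, while 13.5% of all tested genes changed, 7.08% rising and 6.39% falling. The 7 were Gbp3, Gbp5, Gbp6, Gbp7, Igtp, Irgm1 and Irgm2, 4 GBPs and 3 IRGs. The median log2 fold change over the 10 was 0.67, against -0.00 over all tested genes. In the same 7 genes all 3 ANG8 libraries lay above all 3 Ad_GFP libraries, which held for 17.9% of all genes. Gbp2, Iigp1 and Ifi47 did not pass the test.

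Among the GBPs, Gbp5, which helps the NLRP3 inflammasome to assemble, had the largest fold. It was measured at 5.63, 5.92 and 5.92 CPM in Ad_GFP and at 15.8, 19.8 and 13.6 CPM in ANG8. The groups did not overlap, and the log2 fold change was 1.49 (SE 0.38, adjusted p = 0.0165). Gbp3 was measured at 55.1, 53.3 and 40.3 CPM in Ad_GFP and at 93.4, 112 and 87.3 CPM in ANG8. Every ANG8 library stood well above the highest control, with a log2 fold change of 0.98 (SE 0.21, adjusted p = 0.00665). Gbp7, a GBP that acts in the defence against intracellular bacteria, was measured at 61.5, 47.6 and 38.2 CPM in Ad_GFP and at 83.2, 91.2 and 67.9 CPM in ANG8. The lowest ANG8 library was only a little above the highest control, and the log2 fold change was 0.72 (SE 0.20, adjusted p = 0.0272). Gbp6 was measured at 13.4, 16.1 and 11.9 CPM in Ad_GFP and at 20.6, 24.7 and 20.4 CPM in ANG8, a log2 fold change of 0.66 (SE 0.21, adjusted p = 0.0464) that lies close to the threshold. Gbp2, a GBP that helps to lyse pathogen vacuoles, was measured at 15.1, 8.22 and 8.68 CPM in Ad_GFP and at 13.8, 13.9 and 19.5 CPM in ANG8. The first Ad_GFP library lay inside the range of ANG8, and the log2 fold change of 0.56 (SE 0.30, adjusted p = 0.243) did not pass.

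Among the IRGs, Igtp, a regulatory GTPase, rose the most. It was measured at 254, 216 and 184 CPM in Ad_GFP and at 534, 493 and 382 CPM in ANG8. The groups were far apart, with a log2 fold change of 1.11 (SE 0.24, adjusted p = 0.00618). Irgm1, a regulatory GTPase that also acts in autophagy, was measured at 107, 101 and 96.3 CPM in Ad_GFP and at 149, 185 and 155 CPM in ANG8, a log2 fold change of 0.68 (SE 0.17, adjusted p = 0.0141) between groups that did not overlap. Irgm2, the regulator whose exons overlap those of Igtp, was measured at 76.9, 67.9 and 46.1 CPM in Ad_GFP and at 91.1, 106 and 97.5 CPM in ANG8, a log2 fold change of 0.63 (SE 0.19, adjusted p = 0.0405). The 2 effectors did not separate in this way. Iigp1 was measured at 1237, 947 and 813 CPM in Ad_GFP and at 1214, 1498 and 843 CPM in ANG8. The ranges overlapped, with only the second ANG8 library above every control, and the log2 fold change was 0.25 (SE 0.23, adjusted p = 0.542). Ifi47 was measured at 54.0, 35.3 and 36.4 CPM in Ad_GFP and at 45.7, 58.3 and 41.2 CPM in ANG8, also overlapping, with a log2 fold change of 0.21 (SE 0.19, adjusted p = 0.533).

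The adjusted p-values of this and the other comparisons are from edgeR's quasi-likelihood test over all 12 libraries. Gbp3 and Igtp passed in each of the 23 alternative settings tried, whereas the count of 7 rested on single libraries: it was 2 without ANG8 replicate 2, 3 without Ad_GFP replicate 3, and 4 without Ad_GFP replicate 2 or without ANG8 replicate 1. It was 5 without Ad_GFP replicate 1, ANG8 replicate 3 or shCtrl replicate 1, and 6 without shCtrl replicate 2. The adjusted p reached 0.0642 for Gbp5, 0.149 for Gbp6, 0.118 for Gbp7, 0.0625 for Irgm1 and 0.169 for Irgm2 over the alternatives. All 10 log2 fold changes stayed above 0 in every setting. Over all genes, 1040 rose and 938 fell, and with library sizes alone as the scaling 1095 rose and 643 fell.

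**Figure D2:**
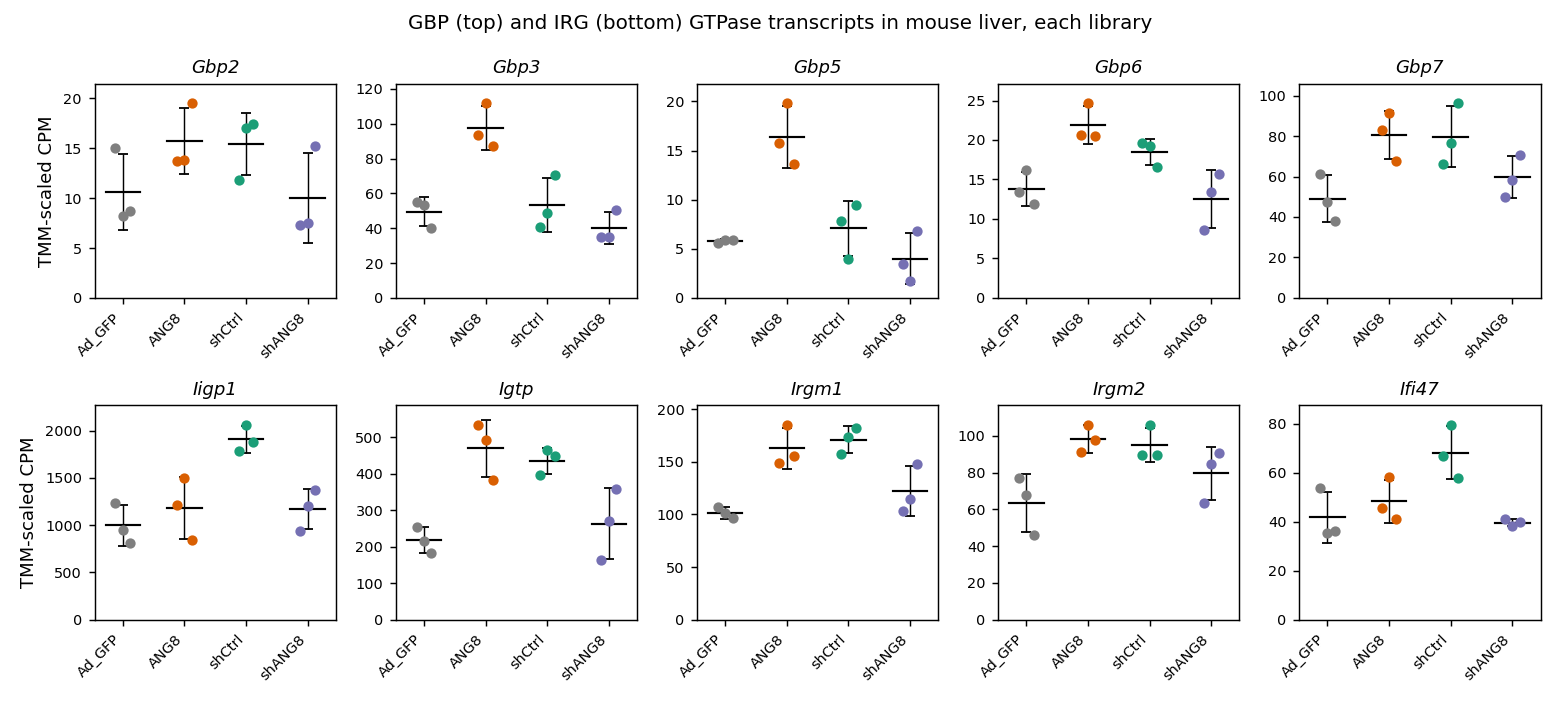
CPM of the 10 members in each of the 12 libraries, with 1 panel per gene on its own axis, points for libraries and horizontal lines with bars for the group mean and SD. In Gbp3, Gbp5, Gbp6, Gbp7, Igtp, Irgm1 and Irgm2 the ANG8 points lie above the Ad_GFP points, and in Iigp1 the shCtrl points (1787 to 2062 CPM) lie above all others.

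With the hairpin against Angptl8, none of the 10 members passed the test against shCtrl, where 0.191% of all genes changed, 0.129% falling and 0.0613% rising. All 10 log2 fold changes were below 0, with a median of -0.59 against 0.01 over all tested genes. In 5 members, Gbp6, Iigp1, Igtp, Irgm1 and Ifi47, every shANG8 library lay below every shCtrl library, which held for 6.78% of all genes. The same 5 had an unadjusted p under 0.05, as had 1164 of all 14686 genes. By DESeq2 1 member passed (Ifi47), with no filter on low counts 2 passed (Igtp and Ifi47), and by limma voom 0 passed.

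Ifi47 had the smallest p. It was measured at 67.0, 79.6 and 58.1 CPM in shCtrl and at 41.0, 38.2 and 39.8 CPM in shANG8, where the 3 libraries were nearly equal. The log2 fold change was -0.78 (SE 0.19, adjusted p = 0.170). Iigp1 was measured at 1787, 2062 and 1876 CPM in shCtrl and at 942, 1199 and 1368 CPM in shANG8. All shANG8 libraries were lower, with a log2 fold change of -0.71 (SE 0.23, adjusted p = 0.412). Igtp was measured at 396, 464 and 448 CPM in shCtrl and at 163, 270 and 358 CPM in shANG8. The shANG8 libraries were widely spread, with a log2 fold change of -0.73 (SE 0.24, adjusted p = 0.411). Irgm1 was measured at 157, 174 and 182 CPM in shCtrl and at 103, 115 and 148 CPM in shANG8, a log2 fold change of -0.49 (SE 0.17, adjusted p = 0.467). Gbp6 was measured at 19.7, 19.2 and 16.6 CPM in shCtrl and at 8.56, 13.4 and 15.7 CPM in shANG8, a log2 fold change of -0.56 (SE 0.21, adjusted p = 0.513). In both genes the third shANG8 library came close to the lowest control.

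The other 5 members overlapped between shCtrl and shANG8. Gbp3 was measured at 40.9, 48.9 and 70.8 CPM in shCtrl and at 35.2, 34.8 and 50.4 CPM in shANG8. Gbp5 was measured at 7.87, 3.96 and 9.42 CPM and at 3.41, 1.73 and 6.82 CPM, which rests on 22 to 124 counts per library. Gbp7 was measured at 66.4, 76.5 and 96.3 CPM and at 49.9, 58.2 and 70.7 CPM. In all 3 genes the third library of shANG8 was the highest of its group and lay inside the range of shCtrl. Gbp2 was measured at 11.8, 17.0 and 17.4 CPM in shCtrl and at 7.28, 7.55 and 15.2 CPM in shANG8. Irgm2 was measured at 89.5, 106 and 89.5 CPM and at 63.4, 84.6 and 90.4 CPM. Again only the third shANG8 library reached the control range. The log2 fold changes of these 5 lay between -0.82 (Gbp5, SE 0.39) and -0.26 (Irgm2, SE 0.19), with adjusted p-values from 0.640 to 0.808.

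The difference between the effect of the ANG8 virus and the effect of the hairpin, each against its own control virus, was tested in the same model. It was above 0 for all 10 members and passed for 7 of them. Over all genes it passed for 6.62%, for 3.72% with a value above 0 and for 2.9% with a value below 0. The 7 were Gbp3, Gbp5, Gbp6, Gbp7, Igtp, Irgm1 and Ifi47. The median difference over the 10 was 1.17, against -0.01 over all tested genes. For Igtp it was 1.83 (SE 0.34, adjusted p = 0.00529), for Irgm1 1.17 (SE 0.24, adjusted p = 0.00961) and for Gbp3 1.39 (SE 0.30, adjusted p = 0.0133), and these 3 passed in each of the 22 alternatives that could be run. For Gbp5 it was 2.31 (SE 0.54, adjusted p = 0.0199), for Gbp6 1.22 (adjusted p = 0.0225), for Gbp7 1.14 (adjusted p = 0.0265) and for Ifi47 0.99 (adjusted p = 0.0367). Gbp2 with 1.18 (adjusted p = 0.110), Iigp1 with 0.95 (adjusted p = 0.0928) and Irgm2 with 0.88 (adjusted p = 0.0617) did not pass. Irgm2 passed in 7 of the 22 alternatives, and Gbp2 and Iigp1 in 3 each. The count was 4 without shCtrl replicate 1, where Gbp5, Gbp6 and Ifi47 were lost, and between 5 and 9 without any other library. Gbp5 and Gbp6 were lost without Ad_GFP replicate 1 as well, and Gbp7 and Ifi47 without each of 7 single libraries, with adjusted p-values up to 0.0661 and 0.0944.

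The control viruses themselves were set against each other, because a difference between them enters every reading of the levels. None of the 10 members passed the test of shCtrl against Ad_GFP, where 0% of all genes changed and 1286 had an unadjusted p under 0.05. All 10 log2 fold changes were above 0, with a median of 0.64 against -0.02 over all tested genes, and 6 members had an unadjusted p under 0.05. In 7 members, Gbp6, Gbp7, Iigp1, Igtp, Irgm1, Irgm2 and Ifi47, every shCtrl library lay above every Ad_GFP library, which held for 7.66% of all genes. By DESeq2 3 members passed (Iigp1, Igtp and Irgm1), the same number with no filter on low counts, and by limma voom 0 passed.

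The values of Igtp show the pattern: 254, 216 and 184 CPM in Ad_GFP against 396, 464 and 448 CPM in shCtrl, a log2 fold change of 1.00 (SE 0.24, adjusted p = 0.372). Iigp1 differed by 0.93 (SE 0.23, adjusted p = 0.372), Irgm1 by 0.75 (SE 0.17, adjusted p = 0.338), Ifi47 by 0.70 (SE 0.19, adjusted p = 0.430), Gbp7 by 0.70 (SE 0.20, adjusted p = 0.442), Irgm2 by 0.58 (SE 0.19, adjusted p = 0.442) and Gbp6 by 0.42 (SE 0.21, adjusted p = 0.589). The smallest differences were those of Gbp5 with 0.28 (SE 0.38, adjusted p = 0.859) and Gbp3 with 0.11 (SE 0.21, adjusted p = 0.910), and that of Gbp3 turned to -0.02 without Ad_GFP replicate 3 and to -0.13 without shCtrl replicate 3. The median was 0.75 over the 5 IRGs and 0.42 over the 5 GBPs. This comparison uses the same Ad_GFP libraries as that of ANG8 and the same shCtrl libraries as that of the hairpin, so the values of a gene in the 3 comparisons are not independent.

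**Figure D3:**
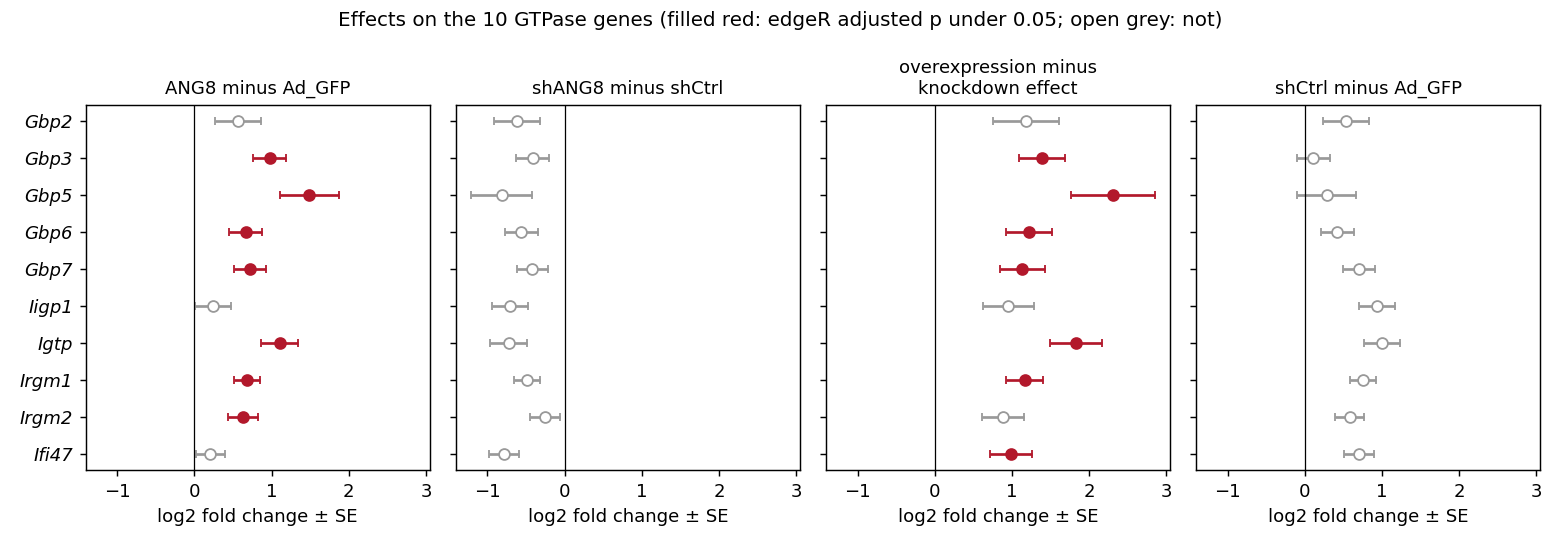
Log2 fold changes of the 10 members, with SE, in 4 panels: ANG8 against Ad_GFP, shANG8 against shCtrl, the difference of these effects, and shCtrl against Ad_GFP, with filled red points where the adjusted p was under 0.05. All 10 lie above 0 in the first panel (7 filled), below 0 in the second (0 filled), and above 0 in the third (7 filled) and the last (0 filled).

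Set side by side, the group means gave different orders in different members. ANG8 was highest in 7 members and shCtrl in 3, Iigp1, Irgm1 and Ifi47. In Gbp2, Gbp3, Gbp5 and Gbp6 the order was ANG8, shCtrl, Ad_GFP, shANG8. In Gbp7, Igtp and Irgm2 it was ANG8, shCtrl, shANG8, Ad_GFP, and in Iigp1 and Irgm1 shCtrl, ANG8, shANG8, Ad_GFP. Ifi47 followed shCtrl, ANG8, Ad_GFP, shANG8. The neighbours at the top lay within their spread in Gbp2, Gbp7, Igtp, Irgm1 and Irgm2: Irgm1 was at 163 ± 19.4 CPM (SD, n = 3) in ANG8 and at 171 ± 12.7 CPM in shCtrl, Irgm2 at 98.2 ± 7.41 and 95 ± 9.46 CPM, and Gbp7 at 80.8 ± 11.9 and 79.7 ± 15.2 CPM. They lay further apart in the other members. Gbp3 was at 97.5 ± 12.8 CPM in ANG8 and 53.5 ± 15.5 CPM in shCtrl, Gbp5 at 16.4 ± 3.17 and 7.09 ± 2.81 CPM, and Gbp6 at 21.9 ± 2.41 and 18.5 ± 1.68 CPM. Iigp1 was at 1185 ± 328 CPM in ANG8 and 1908 ± 140 CPM in shCtrl, and Ifi47 at 48.4 ± 8.83 and 68.2 ± 10.8 CPM. Of the neighbours at the bottom, Gbp7 was at 49.1 ± 11.7 CPM in Ad_GFP and 59.6 ± 10.5 CPM in shANG8 and Gbp3 at 49.6 ± 8.09 and 40.1 ± 8.92 CPM.

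Per kilobase of transcript the members spanned a wide range. In RPKM (CPM divided by the gene's length in kilobases), Iigp1 was the most abundant in every group, with group means of 320 for Ad_GFP, 380 for ANG8, 611 for shCtrl and 375 for shANG8. Igtp came next with 108, 232, 216 and 130 RPKM. Gbp5 was the lowest in every group, with 0.877, 2.47, 1.07 and 0.601 RPKM. Iigp1 alone made up 62.6% of the summed RPKM of the 10 members for Ad_GFP, 51.1% for ANG8, 64.3% for shCtrl and 63.2% for shANG8. The share of Igtp was 21.1%, 31.3%, 22.7% and 22% in the same order. The sum of CPM over the members is therefore mostly that of Iigp1 and Igtp, and it was highest in shCtrl, at 2644 to 3051, against 1727 to 2601 in ANG8, 1416 to 2163 in shANG8 and 1281 to 1881 in Ad_GFP.

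Within a group the members tended to be high in the same library. Ad_GFP replicate 1 held the highest value of its group for 8 of the 10 members and for 34.6% of all tested genes. ANG8 replicate 2 held it for 8 of 10 (35.6% of all genes) and shANG8 replicate 3 for 9 of 10 (31.5%). In shCtrl the highest values were split between the third library with 5, the second with 4 and the first with 1. On the mean of the members' log2 CPM, each centred on its own mean over the 12 libraries, ANG8 replicate 2 was highest with 0.57 and shANG8 replicate 1 lowest with -0.61. Ad_GFP replicate 3 lay at -0.55, and shANG8 replicate 3 at 0.05, above all 3 Ad_GFP libraries. ANG8 replicate 2 also had the highest mitochondrial share, 43.83%, and shANG8 replicate 3 the lowest, 19.33%, and the part of that share in these values was not tested beyond a fit that took it in as a covariate, where Gbp6 and Gbp7 no longer passed for ANG8, Gbp2 passed, and the other 5 called members held.

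Among the genes whose centred profile over the 12 libraries lay nearest to this mean, by root mean square difference in log2 CPM over 11600 genes, were Ugt2b35 (0.152), Oma1 (0.176), Psmb9 (0.183), Eif4e3 (0.206), Cdk7 (0.211), Hprt (0.214) and Gbe1 (0.215). Psmb9 is a subunit of the immunoproteasome. Ugt2b35 is a glucuronosyltransferase, Oma1 a mitochondrial protease, Hprt an enzyme of purine salvage and Gbe1 the glycogen branching enzyme. Of the members, Irgm1 was nearest to the mean (0.144) and Gbp5 farthest (0.68), on ranks 1 and 9452. The mean is made of the members themselves, which brings their own profiles nearer to it. The measure also counts the size of the swings. The root mean square of the centred profile itself was 0.92 for Gbp5 and 0.34 for Irgm1.

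The other GBP and IRG genes of the table, 17 in number with 15 tested, include Gbp2b, an inducible GBP, the effector IRGs Tgtp1 and Tgtp2, and Irgq, a distant relative. With ANG8, 5 of the 15 rose and 0 fell, with a median of 0.48, while 7.08% of all tested genes rose. By DESeq2, by limma voom and with the replicate number as a block 6 rose. The 5 called by edgeR were Gbp2b with 1.63 (SE 0.28, adjusted p = 0.00170), Gbp4 with 0.85 (adjusted p = 0.00477), Gbp8 with 1.17 (adjusted p = 0.00398), Tgtp1 with 1.15 (adjusted p = 0.0172) and Tgtp2 with 1.78 (adjusted p = 0.0299). The calls of Tgtp1 and Tgtp2 were lost without single libraries, Ad_GFP replicates 1 or 3 for both and any ANG8 library for Tgtp2, and that of Tgtp2 also when the fit took in mitochondrial share, with adjusted p-values up to 0.0717 and 0.112. Gbp2b was measured at 13.8, 17.3 and 18 CPM in Ad_GFP, 37.8, 62.2 and 51.8 CPM in ANG8, 14.7, 14 and 15.9 CPM in shCtrl, and 9.85, 3.54 and 9.42 CPM in the hairpin group. Its ANG8 libraries lay far above all others and its control groups lay side by side.

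With the hairpin, 0 of the 15 passed by edgeR, 7 had an unadjusted p under 0.05 (1164 of all 14686 genes), 2 passed by DESeq2 and 0 by limma voom. The replicate number as a block gave 2. In 13 of the 15 the log2 fold change was below 0, with a median of -0.70. In 8 the groups did not overlap, with shANG8 lower, which held for 6.78% of all genes. The difference between the effects of ANG8 and the hairpin was above 0 in 14 of the 15. It passed, above 0, in 6 of 15, against 3.72% of all genes. The 6 were Gbp2b with 2.59, Gbp8 with 2.05, Tgtp1 with 1.85, Gm5431 with 1.83, Gbp4 with 1.58 and Gbp9 with 1.25. Between the control viruses 0 of the 15 passed (by DESeq2 0, by limma voom 0, and 1 at an unadjusted p under 0.05), and the median was 0.10. For Gbp2b this difference was -0.14 (SE 0.28), for Gbp4 0.10 (SE 0.18), for Gbp8 0.09 (SE 0.23) and for Gbp9 0.02 (SE 0.18).

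Of interferon-gamma itself and the cytokines that induce or accompany it, 5 of 7 genes were tested and 0 passed for ANG8 by edgeR, with 2 at an unadjusted p under 0.05, 1 passing by DESeq2, 1 by limma voom and 1 with the replicate number as a block. Ifng had 8, 14 and 8 counts in Ad_GFP, 31, 38 and 17 counts in ANG8, 14, 7 and 16 counts in shCtrl, and 12, 22 and 8 counts in shANG8. The ANG8 libraries were the highest but for 1 that lay below a shANG8 library, and scaled to CPM the ANG8 and Ad_GFP groups overlapped. Its log2 fold change for ANG8 was 1.61 (SE 0.63, adjusted p = 0.0994). Il27, a cytokine of antigen-presenting cells, had 6, 8 and 8 counts in Ad_GFP and 37, 40 and 37 in ANG8, with a log2 fold change of 2.42 (SE 0.87, adjusted p = 0.0742), and 0 to 12 counts in the other libraries. The SE of Ifng, 0.63, is about as large as the members' median effect of 0.67, so a difference of that size was not detectable at these counts. Il12a and Il12b, the subunits of interleukin-12, had 0 to 3 and 0 to 11 counts per library and were not tested.

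Of 9 genes of the receptor and its signalling, 2 rose with ANG8 and 0 fell, while 7.08% of all tested genes rose. Ifngr2, a chain of the interferon-gamma receptor, was measured at 18.2, 13.5 and 14.2 CPM in Ad_GFP and at 24.8, 27.2 and 20.9 CPM in ANG8, a log2 fold change of 0.67 (SE 0.19, adjusted p = 0.0243). The groups did not overlap. Irf8, a factor of myeloid cells and of interferon responses, was measured at 33.3, 31.5 and 42.8 CPM in Ad_GFP and at 73.4, 98.5 and 60.2 CPM in ANG8, a log2 fold change of 1.11 (SE 0.19, adjusted p = 0.00161). The call of Ifngr2 was lost without Ad_GFP replicates 2 or 3 or ANG8 replicates 1 or 2, or when the fit took in mitochondrial share (adjusted p up to 0.0957). Irf8 passed in each of the 23 alternatives. Irf1 with 0.55 (adjusted p = 0.0544) and Batf2, a partner of IRF1, with 1.08 (adjusted p = 0.0602) did not pass by edgeR. By DESeq2, by limma voom and with the replicate number as a block, 4 of the 9 rose with ANG8. With the hairpin 0 of the 9 passed (by DESeq2 0, by limma voom 0, and 1 at an unadjusted p under 0.05), and all 9 values were below 0, from -1.51 for Batf2 (SE 0.40, adjusted p = 0.235) to -0.04 for Irf9. The difference between the effects was above 0 in 8 of the 9. It passed for Ifngr2 (0.97), Irf8 (1.36) and Batf2 (2.59), and that of Ifngr2 was lost in 9 alternatives (adjusted p up to 0.109).

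Of 7 tested inhibitors of the pathway, 2 rose with ANG8 and 0 fell, while 7.08% of all tested genes rose. Socs1, which blocks JAK kinases, was measured at 8.60, 4.22 and 4.98 CPM in Ad_GFP, 11.3, 18.3 and 11.9 CPM in ANG8, 9.37, 10.2 and 6.16 CPM in shCtrl, and 3.41, 2.67 and 6.12 CPM in shANG8. The groups did not overlap in either pair, though the third libraries of shCtrl and shANG8 nearly met, with log2 fold changes of 1.21 (SE 0.33, adjusted p = 0.0236) for ANG8 and -1.07 (SE 0.34, adjusted p = 0.389) for the hairpin. Ptpn6, a phosphatase of blood cells, rose by 0.77 (SE 0.21, adjusted p = 0.0198). The call of Socs1 was lost without Ad_GFP replicates 2 or 3 or ANG8 replicate 2 (adjusted p up to 0.103), and that of Ptpn6 without Ad_GFP replicate 2 or ANG8 replicate 1 (up to 0.0850). Usp18, an inhibitor of the type I receptor, was at -0.02 (SE 0.19), and Socs3, Ptpn2, Pias1 and Pias3 did not pass. With the hairpin 0 of the 7 passed by edgeR, DESeq2 or limma voom, with 1 at an unadjusted p under 0.05. Il10 was not tested.

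**Figure D4:**
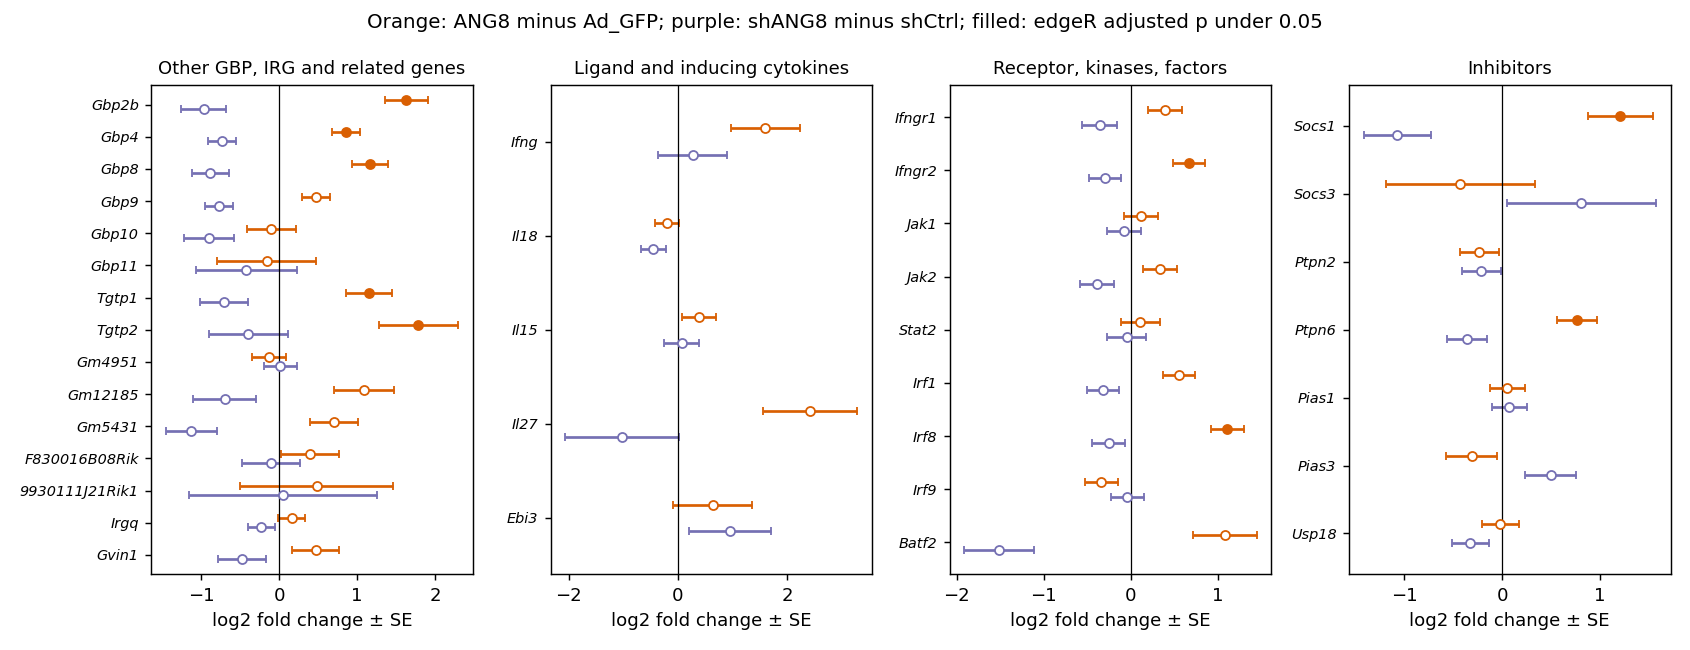
Log2 fold changes with SE of the tested genes of the other GBPs and IRGs, the ligand and inducing cytokines, the receptor and its signalling, and the inhibitors, orange for ANG8 against Ad_GFP and purple for shANG8 against shCtrl, filled where the adjusted p was under 0.05. Filled points are all orange and above 0: 5 in the first panel, 0 in the second, 2 in the third and 2 in the last.

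Of 28 other targets of interferon-gamma that were tested, 12 rose with ANG8 and 1 fell, with a median of 0.57. Over all tested genes 7.08% rose and 6.39% fell. The 4 with the smallest p were Ciita, the regulator of MHC class II genes, with 1.63 (adjusted p = 0.000273), Cd274, the ligand PD-L1, with 1.12 (adjusted p = 0.00150), Cd74, the invariant chain, with 2.08 (adjusted p = 0.00232), and Casp1, the inflammasome protease, with 1.35 (adjusted p = 0.00253). The gene that fell was Lap3, a peptidase, by 0.61 (adjusted p = 0.0477); it is named because its count is 1 and was chosen after its values were seen. Psmb9, near the members in profile, was at 0.57 with ANG8 and at -0.75 with the hairpin and passed in neither. The difference between these effects did pass for Psmb9, at 1.32 (adjusted p = 0.00887 by edgeR). With the hairpin 0 of the 28 passed by edgeR (by DESeq2 1, by limma voom 0, and 4 at an unadjusted p under 0.05), and the median was -0.22. In these values the members and the other targets had different medians with the hairpin, -0.59 and -0.22, a difference that was not tested.

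Targets that type I interferons induce rose with ANG8 as well: 14 of 24 passed and 0 fell, with a median of 0.77, against 7.08% of all tested genes rising. Among them were Ifi44 with 1.22 (adjusted p = 0.000760), Zbp1, a sensor of nucleic acids, with 1.14 (adjusted p = 0.00153), Irf7, a factor of interferon induction, with 0.93 (adjusted p = 0.00246) and Oasl2 with 1.12 (adjusted p = 0.00253). With the hairpin 0 of the 24 passed by edgeR, DESeq2 or limma voom, with 8 at an unadjusted p under 0.05 and a median of -0.34. Between the control viruses 0 passed by edgeR, DESeq2 or limma voom, with 2 at an unadjusted p under 0.05, and the median was 0.07. The members' median there was 0.64. Many genes of this list also answer interferon-gamma, so the lists do not separate the interferons.

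Markers of other cells moved with the ANG8 group, where 7.08% of all tested genes rose and 6.39% fell. Of 18 markers of T and NK cells, 10 rose and 1 fell, and their summed level was 171 to 198 CPM in ANG8 against 69.0 to 96.3 in Ad_GFP, with Ncr1 at 0 in at least 1 library. Cd8a rose by 1.54 (adjusted p = 0.000111), Klrk1 by 1.47, Lck by 1.30 and Gzma by 1.82. The marker that fell was Cd4, by 1.17 (adjusted p = 0.0209), and Eomes (-0.57), Ncr1 (-0.25) and Klrb1c (0.13) were among those that did not pass, these 4 being named after their values were seen. Of 14 markers of macrophages and Kupffer cells, 11 rose and 0 fell, with summed levels of 1202 to 1558 CPM in ANG8 against 488 to 687 in Ad_GFP. Aif1 rose by 1.86, Cd5l by 1.65, Spi1 by 1.36 and C1qb by 1.10. Of 10 endothelial markers 0 passed by edgeR (1 by DESeq2, 1 by limma voom). Of 11 hepatocyte genes 8 fell, among them Cyp2e1 by 1.69, Hpd by 1.68, Uox by 1.43 and Cps1 by 1.17. None of the 11 hepatocyte genes was at 0 in any library, and their summed level was 25164 to 52962 CPM in ANG8 and 45167 to 68651 CPM in Ad_GFP.

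The summed T and NK markers were also lower in shANG8, at 53.9 to 77.2 CPM, than in shCtrl, at 92.1 to 118 CPM, while macrophage markers were at 344 to 648 and 391 to 457 CPM. With the hairpin 0 of the 18 and 0 of the 14 passed by edgeR (by DESeq2 1 and 1, by limma voom 0 and 0, and 6 and 2 at an unadjusted p under 0.05). Between the control viruses all 10 member values lay above 0 and none passed by edgeR. There the sums of T and NK markers were 69.0 to 96.3 CPM in Ad_GFP and 92.1 to 118 CPM in shCtrl, and those of macrophage markers 488 to 687 and 391 to 457 CPM. The part of these cells in the values of the members was not tested. In bulk liver RNA more cells of a type and more RNA per cell cannot be told apart.

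**Figure D5:**
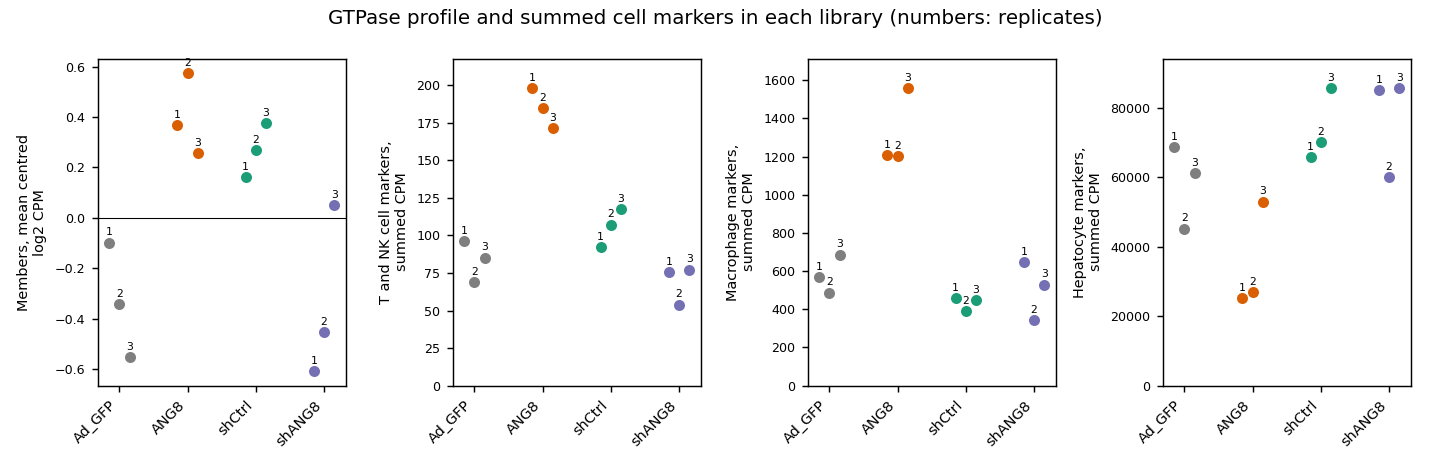
Each library's mean centred log2 CPM of the 10 members and summed CPM of the T and NK cell, macrophage and hepatocyte markers, with points numbered by replicate. The member mean runs from -0.61 in shANG8 replicate 1 to 0.57 in ANG8 replicate 2, and the 3 ANG8 libraries hold the highest T and NK (171 to 198) and macrophage (1202 to 1558) sums, while the 3 shCtrl libraries are high for the members but not for the macrophage markers (391 to 457).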

How the data were processed

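The authors deposited 1 table of gene counts (unnormalized whole numbers) for 12 libraries in 4 groups of 3. The submitters' processing notes list the build mm9, featureCounts 1.5.0-p3 and CASAVA 1.8.2. Not given in the sources used here are the aligner, strand setting and annotation release. Of the 54532 gene identifiers, 54495 are in GENCODE vM21 (GRCm38), 53585 (98.3%) with the same coordinates, so positions are given as GRCm38. Iigp1 is the member whose coordinates differed, and its positions are not given.

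Counts were tested in R 4.3.3 with edgeR 4.0.16: filterByExpr, TMM scaling and a robust quasi-likelihood fit over all 12 libraries and 4 groups, with p-values adjusted by the Benjamini-Hochberg method over the 14686 genes tested. The SE is the absolute log2 fold change divided by the square root of F. The comparisons were ANG8 minus Ad_GFP, shANG8 minus shCtrl, the difference of these effects, and shCtrl minus Ad_GFP. Profiles used log2 CPM with a prior count of 2, over genes with a mean of at least 1. RPKM used the gene lengths of the deposited table. Alternatives were DESeq2 1.42.0, limma voom 3.58.1, other scalings and filters, a fit of the compared groups alone, the replicate number as a block, the mitochondrial share as a covariate, and each library left out. The scripts were tested on simulated data. Copies were searched with BLAST 2.17.0 at 95% identity over 100 bases or more.

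The members and gene lists were chosen with earlier results of these data known. Named were the members, Angptl8, genes of the family, ligand, receptor and inhibitor lists, up to 4 genes of each other list by the smallest p for ANG8, and the 8 genes nearest in profile. An item that these rules cover is not reported here.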

Additional observations from a re-analysis of the deposited data

Results flagged for a closer look

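Among the members, their family, the interferon-gamma ligand, receptor and inhibitor lists and Angptl8, for 19 genes the effect of the ANG8 virus against Ad_GFP and that of the hairpin against shCtrl differed, by edgeR's test of the difference itself, which 972 of all 14686 genes (6.62%) passed. Of the 10 members, the difference in log2 fold change was 1.39 for Gbp3, 2.31 for Gbp5, 1.22 for Gbp6, 1.14 for Gbp7, 1.83 for Igtp, 1.17 for Irgm1 and 0.99 for Ifi47. Of 15 other family genes it was 2.59 for Gbp2b (adjusted p = 0.00242), 1.58 for Gbp4, 2.05 for Gbp8, 1.25 for Gbp9, 1.85 for Tgtp1 and 1.83 for Gm5431. In the pathway it was 0.97 for Ifngr2, 1.36 for Irf8, 2.59 for Batf2, 2.28 for Socs1 and 1.13 for Ptpn6. In the other lists of targets, 11 of 28 interferon-gamma targets and 12 of 24 type I targets passed as well. For Angptl8 it was 2.58 (adjusted p = 0.00700).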

How the results depend on the processing

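For ANG8, the count of 7 members was 6 or 7 under the 11 other tools, scalings, filters, samples and covariates, and 2 to 7 with 1 library left out. For the hairpin, 0 members became 1 by DESeq2, 2 with no low-count filter and 0 with any library left out. For the difference of effects, 7 became 9 by DESeq2, 8 by limma voom and 4 to 9 with 1 library left out. With no low-count filter the 7 held, and Gbp2, Iigp1 and Irgm2 passed as well. Between the control viruses, 0 became 3 by DESeq2, 3 with no filter and 0 with any library left out. The value of Gbp3 between the control viruses, 0.11, turned to -0.02 without Ad_GFP replicate 3 and ran from -0.13 (without shCtrl replicate 3) to 0.27 with 1 library left out. The cause of these changes was not tested. Over all genes, the 1978 calls for ANG8 were 995 to 2164 with 1 library left out. The 28 calls for the hairpin were 102 by DESeq2, 132 with no filter, 47 with the mitochondrial covariate and 21 to 39 with 1 library left out. The 972 calls for the difference were 1541 by DESeq2, 1510 with no filter and 473 to 1227 with 1 library left out. The 0 calls between control viruses were 38 by DESeq2, 96 with no filter and 0 to 10 with 1 library left out. Replicate numbers are shared between groups, and whether they mark a shared source is not known. Deviations of same-numbered libraries correlated at -0.0667 to 0.149 for ANG8, 0.0345 to 0.186 for the hairpin and -0.0381 to 0.0813 for the control viruses. Those of differently numbered libraries correlated at -0.21 to 0.114 for ANG8, -0.127 to 0.066 for the hairpin and -0.128 to 0.038 for the control viruses. A replicate block in the fit left 7, 0, 8 and 0 members passing in the 4 comparisons, and over all genes 55 for the hairpin, 1550 for the difference and 5 for the control viruses. The fit of the compared groups alone was not run for the difference, which uses every group.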
